A study of Mus musculus with 12 samples.

Results

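Mouse embryonic stem cells of the E14 line were compared after 18 h and after 6 h of panobinostat (LBH589) at 50 nM, to ask which transcripts differed between these times of exposure. The comparison used 6 of the 12 arrays of the series, 3 at 6 h and 3 at 18 h, chosen by their labels, and 3 untreated arrays (0 h) and 3 arrays at 2 h gave the earlier levels. E14 is a single male wild-type line of strain 129/Ola, grown here without feeder cells on gelatin in fetal calf serum with the cytokine LIF. Both groups of the comparison carried the drug, and drug exposure and time in culture cannot be told apart, since the labels give no time-matched untreated cells. Whether the replicates were separate cultures is not stated, so the p-values measure the spread between these arrays, which may be technical.

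Panobinostat blocks histone deacetylases, which strip acetyl groups off histones and other proteins. Such inhibitors change the transcription of many genes within hours, and what is measured at a late time can mix early responses that have passed with slower changes that follow them. Embryonic stem cells are held in the pluripotent state by a network of transcription factors that includes Oct4, encoded by Pou5f1, with Sox2 and Nanog.

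Levels are given as normalized log2 signal of 1 probe per gene, and differences as 18 h minus 6 h on the log2 scale with their standard error (SE). Genes were tested with limma on all 12 arrays, and p-values were adjusted over all genes by the Benjamini-Hochberg method, with 0.05 as the threshold. Each array detected 16813 to 18111 of its 45281 probes. Arrays correlated at 0.984 to 0.989 within 6 h, at 0.976 to 0.984 within 18 h and at 0.958 to 0.970 between these times. The 18 h replicate 1 correlated at 0.977 and 0.976 with the other 18 h arrays, which correlated with each other at 0.984. All 7 embryonic stem cell markers were detected on every array, and their summed level was 14.735 to 14.947 at 6 h and 14.535 to 14.725 at 18 h. Of 10 fibroblast markers, Col3a1, Dcn, Lum, Postn and Fap were not detected on any array of either time, and the summed level was 9.253 to 9.589 at 6 h and 9.458 to 10.046 at 18 h. Of 9 blood and endothelium markers on the array, Ptprc and Lyz2 were not detected at either time, and the summed level was 8.613 to 8.708 at 6 h and 8.657 to 9.000 at 18 h. Of the 6 tested, 1 passed as higher and 1 as lower at 18 h, with differences from -0.815 to 1.797. None of 4 tested fibroblast markers passed. The part of other cell types in the results was not tested. In bulk RNA, fewer cells of a kind and less RNA per cell cannot be told apart.

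Of 11445 genes tested, 1287 differed between 18 h and 6 h, which is 11.2% of all genes. Of these, 711 were higher at 18 h (6.21% of all genes) and 576 were lower (5.03%), while the median difference of all genes was 0.007. The difference was at least 2-fold for 411 genes (3.59% of all genes), 265 of them higher and 146 lower. The 18 h arrays all lay on 1 side of all 6 h arrays for 3604 genes, or 31.5%. Higher genes started from a median 6 h level of 6.55 and lower genes from 8.26, beside 7.26 for all genes. No 6 h array detected 68 of the higher genes, and no 18 h array detected 15 of the lower ones. Arrays with the same replicate number deviated together, but the reported test holds no term for that number. With the replicate number as a block the count was 2112, with 1172 higher and 940 lower. These held all 1287 genes of the reported test, each in the same direction. Losses of a call without single arrays, given here and below, come from the test without this term. The count was 605 without 6 h replicate 1, 676 without 6 h replicate 2, 556 without 6 h replicate 3 and 635 without 18 h replicate 2. Sizes depended on the background correction: without it, the difference was smaller by over 1.5 times for 51 of the 136 called genes that were followed through every alternative.

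**Figure D1:**
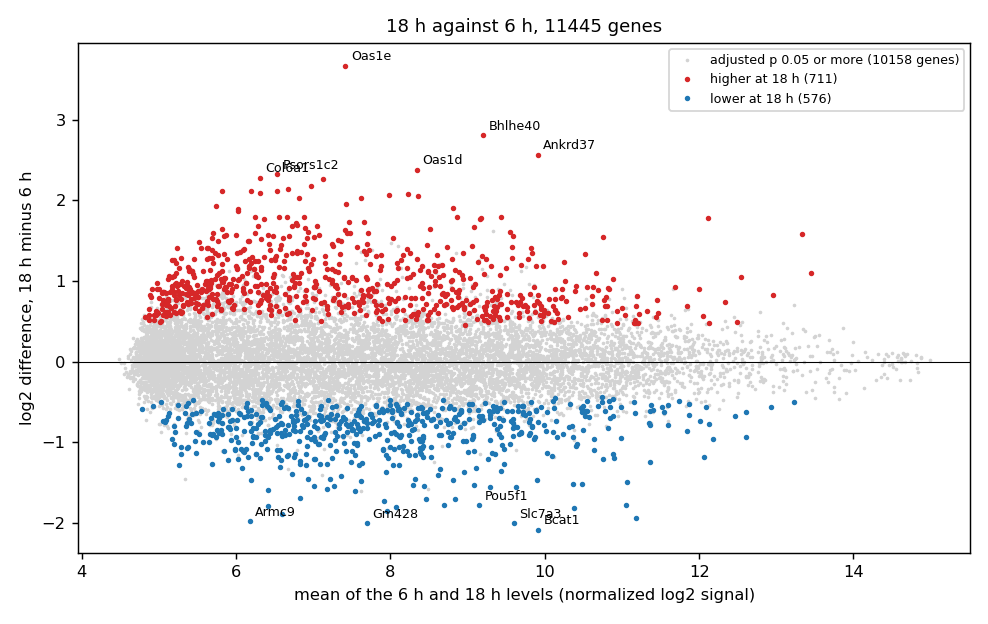
Difference between 18 h and 6 h (log2 signal, vertical axis) against the mean of both levels (log2 signal, horizontal axis) for 11445 genes, 1 point per gene. The 711 higher genes reach 3.67 (Oas1e) and the 576 lower genes reach -2.09 (Bcat1).

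Pou5f1, which encodes Oct4, was among the genes that fell most. Its level was 10.12, 9.96 and 10.06 on the 6 h arrays and 8.04, 8.25 and 8.49 on the 18 h arrays. The groups were far apart, with a difference of -1.78 (SE 0.17, adjusted p = 0.000167, limma), and at 0 h and 2 h the mean was 10.55 and 10.21. The members of this and every later list were chosen with earlier results of these data known, so the shares of lists are a description. Of 14 tested genes of core pluripotency, 4 fell (28.6%, beside 5.03% of all genes) and 0 rose, and the median difference was -0.21. The other 3 were Dppa2 (-1.12), Utf1 (-0.92), a chromatin-associated factor of undifferentiated cells, and Trim28 (-0.74), a co-repressor that silences retroelements. The call for Dppa2 was lost without 6 h replicate 1 (adjusted p = 0.0608, limma) and that for Utf1 without 6 h replicate 3 (adjusted p = 0.0726, limma). Trim28 lost its call without each array in turn (adjusted p 0.0535 to 0.133, limma), and 2 members of the list fell without replicates 1 or 3 at 6 h.

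Sox2 and Nanog gave no call. The level of Nanog was 10.46, 10.65 and 10.25 at 6 h and 9.33, 10.96 and 10.82 at 18 h, with 18 h replicate 1 below and the other 18 h arrays above every 6 h array. Its difference was -0.08 (SE 0.33, adjusted p = 0.907, limma), and 0.44 without 18 h replicate 1 (adjusted p = 0.157, limma). Sox2 read 8.77, 8.82 and 8.91 at 6 h and 8.12, 9.39 and 9.53 at 18 h, again with replicate 1 apart. Both genes had been higher in untreated cells, at 12.66 for Nanog and 10.00 for Sox2.

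Of 17 tested genes of naive pluripotency, 5 fell (29.4%, beside 5.03% of all genes) and 1 rose (5.88%, beside 6.21%). The 1 that rose was Dazl, which is also counted in the germline list below. The median difference was -0.17. The count that fell was 3 without any 1 array but 6 h replicate 2, and the count that rose was 0 without replicates 1 or 2 at 6 h or replicate 3 at 18 h. Without background correction, with cyclic loess, with the authors' normalized values, with dim probes kept or with each gene's probes averaged, 3 fell as well. Tfcp2l1, a transcription factor of the LIF and STAT3 pathway, read 11.32, 11.06 and 11.70 at 6 h and 10.37, 10.23 and 9.85 at 18 h. Its groups did not overlap and its difference was -1.21 (SE 0.22, adjusted p = 0.0058, limma). Its level had been 10.89 in untreated cells, below that at 6 h. The junction gene Jam2 was lower by -1.45, and its 5 further probes ranged from -1.40 to -0.09; with the mean of all its probes the call was lost (adjusted p = 0.0615, limma). Fbxo15, a target of Oct4, fell by 1.15, and Tbx3 and Tcl1 gave -0.92 and -1.21. Tbx3 lost its call without each array in turn (adjusted p 0.0611 to 0.177, limma). For Tcl1 the call was lost without any 1 of 5 arrays, 6 h replicates 1 and 3 and all 18 h replicates (adjusted p 0.0621 to 0.174, limma). With the replicate block the adjusted p was 0.0328 for Tbx3 and 0.000591 for Tcl1 (limma).

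Esrrb, Klf4 and Zfp42 gave no call, with differences of -0.85, -0.17 and -0.10. For Esrrb the 6 h arrays read 10.55, 10.55 and 11.32 and the 18 h arrays 9.60, 10.15 and 10.12, so that the groups did not overlap. Its adjusted p was 0.0639, and 0.0135 with the replicate block (limma). Among 11 tested genes of the formative and primed state, 3 fell (27.3%, beside 5.03% of all genes) and 0 rose. Only 1 fell without replicates 1 or 3 at 6 h or replicate 2 at 18 h. The 3 that fell were the DNA methyltransferase Dnmt3b (-0.96) and the ETS factors Etv5 (-0.82) and Etv4 (-0.77), which act downstream of FGF signalling. The Dnmt3b call was lost without 6 h replicate 1 (adjusted p = 0.0501, limma). Etv5 lost its call without 6 h replicate 3 or 18 h replicate 2, and Etv4 without any 1 of 6 h replicates 1 and 3 and 18 h replicates 1 and 2. Otx2, a factor of the primed state, read 5.45, 5.92 and 6.00 at 6 h and 5.14, 6.45 and 7.28 at 18 h. Its adjusted p was 0.454 over all arrays and 0.0243 without 18 h replicate 1 (limma).

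**Figure D2:**
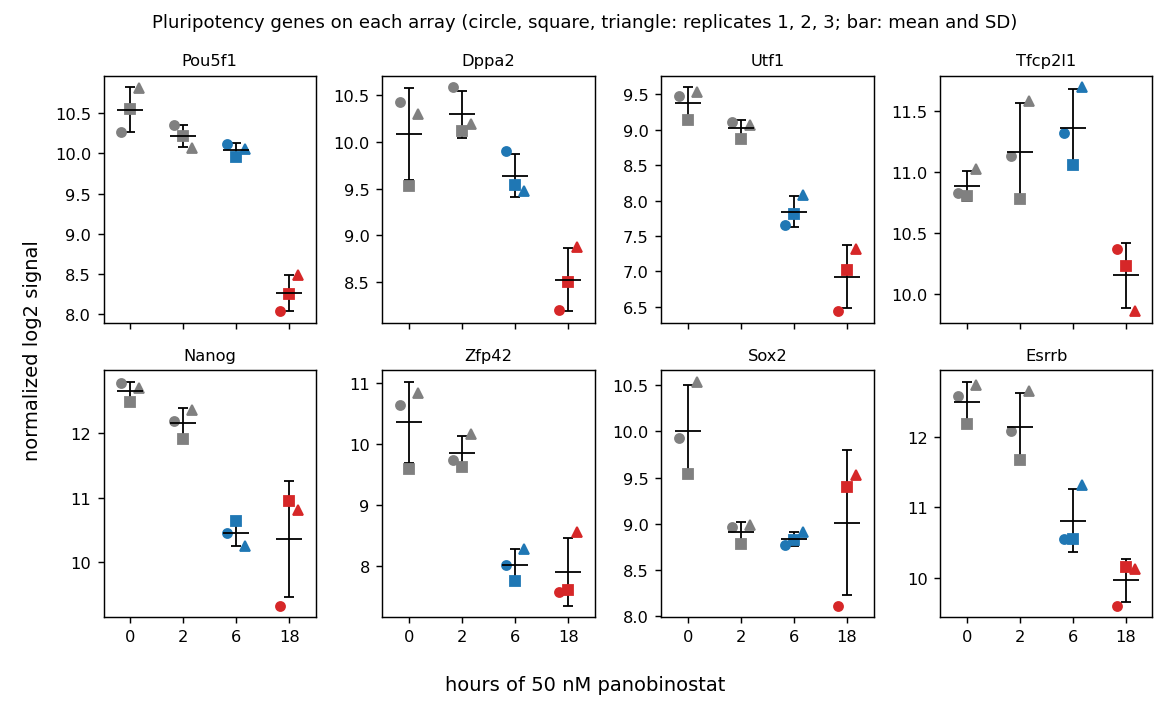
Normalized log2 signal of 8 pluripotency genes (vertical axes) at 4 times of exposure (horizontal axes, hours), with 1 point per array and the mean and SD of 3 arrays. Pou5f1 lies between 9.96 and 10.12 at 6 h and between 8.04 and 8.49 at 18 h, while the 18 h arrays of Nanog and Sox2 lie on both sides of the 6 h arrays.

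The hypoxia response list holds genes induced by hypoxia-inducible factors (HIF) when oxygen is low. They include genes of glucose transport, collagen hydroxylation and oxygen sensing. The list also holds Hif1a and Epas1, which encode HIF subunits. Of 17 tested members, 5 rose (29.4%, beside 6.21% of all genes) and 0 fell, and the median difference was 0.64. The counts were 11 with the replicate block, 9 with array weights, and 3 without replicates 1 or 3 at 6 h or replicate 2 at 18 h. The letters ACGTG form the core of the element that HIF binds, and the promoters of the 3 members that rose most are shown because each holds them. They come from RefSeq (GRCm38.p6), run from 250 bases before to 50 after the start of the gene, and capitals mark ACGTG on either strand. Ankrd37 lies at chr8:45999801-46000100 on the minus strand, P4ha2 at chr11:54100674-54100973 on the plus strand and P4ha1 at chr10:59323046-59323345 on the plus strand.
Ankrd37: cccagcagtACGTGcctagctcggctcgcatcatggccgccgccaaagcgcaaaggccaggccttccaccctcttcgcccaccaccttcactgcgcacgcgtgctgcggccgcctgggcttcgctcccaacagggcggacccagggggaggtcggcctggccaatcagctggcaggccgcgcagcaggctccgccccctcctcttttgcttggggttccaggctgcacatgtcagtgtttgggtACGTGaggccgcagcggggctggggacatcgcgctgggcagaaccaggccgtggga
P4ha2: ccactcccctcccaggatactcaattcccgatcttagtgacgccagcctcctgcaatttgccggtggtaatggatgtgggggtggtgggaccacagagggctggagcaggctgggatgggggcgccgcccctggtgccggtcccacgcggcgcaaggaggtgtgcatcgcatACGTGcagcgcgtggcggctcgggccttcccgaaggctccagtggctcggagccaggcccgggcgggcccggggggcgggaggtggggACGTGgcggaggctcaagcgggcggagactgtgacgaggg
P4ha1: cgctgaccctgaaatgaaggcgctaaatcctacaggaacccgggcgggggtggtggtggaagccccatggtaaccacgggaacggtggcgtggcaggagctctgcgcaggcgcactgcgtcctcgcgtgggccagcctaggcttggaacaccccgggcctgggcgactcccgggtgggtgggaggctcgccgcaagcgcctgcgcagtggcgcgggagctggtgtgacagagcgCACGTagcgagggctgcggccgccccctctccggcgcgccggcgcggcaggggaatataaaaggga
All 5 members that rose had the letters in this window, as did 13 of the 16 tested members with a promoter entry, or 81.2%. The share was 21.8% of 27025 genes with an entry, tested or not, and 50% of 20 tested germline and meiosis genes. Members were chosen as hypoxia response genes, so their share does not bear on the rise, and a role of HIF was not tested.

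Ankrd37, an ankyrin repeat gene used as a marker of HIF activity, was the member with the largest rise. It read 8.35, 8.90 and 8.61 at 6 h and 11.08, 11.16 and 11.34 at 18 h. All 18 h arrays were above all 6 h arrays, and the difference was 2.57 (SE 0.28, adjusted p = 0.000263, limma). P4ha2 and P4ha1 encode catalytic subunits of the prolyl hydroxylase that modifies collagen, and rose by 1.79 (SE 0.38) and 1.45 (SE 0.23). P4ha1 read 5.94, 5.74 and 5.89 at 6 h and 7.44, 7.61 and 6.87 at 18 h. Its untreated mean was 6.89, above the 6 h mean. Egln3, an oxygen-sensing hydroxylase, rose by 1.19, and the glucose transporter Slc2a1 by 0.83. The Egln3 call was lost without any 1 of the 6 h replicates or without 18 h replicate 2 (adjusted p 0.0553 to 0.101, limma). With the replicate block the adjusted p was 0.00176 for Egln3 and 0.00272 for Slc2a1 (limma). The Slc2a1 call was lost without any 1 of 6 h replicates 1 and 3 and 18 h replicates 1 and 2 (adjusted p 0.0649 to 0.135, limma), and with scaling to the 75th percentile (adjusted p = 0.0869, limma). Ndrg1 read 7.30, 7.50 and 6.99 at 6 h and 9.54, 8.95 and 7.74 at 18 h. Its adjusted p was 0.0625, and 0.0104 with the replicate block (limma).

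Pdk3, a kinase that restrains pyruvate entry into the citric acid cycle, read 8.25, 8.13 and 8.41 at 6 h and 9.28, 9.61 and 9.32 at 18 h. Its groups were separate (difference 1.14, SE 0.18, adjusted p = 0.00247, limma). In the glycolysis list as a whole, 3 of 19 tested genes rose (15.8%, beside 6.21% of all genes) and 1 fell (5.26%, beside 5.03%). The median difference was 0.11, and 6 rose with the replicate block. Only 1 rose without replicates 1 or 3 at 6 h or replicate 2 at 18 h or with scaling to the 75th percentile, and 0 fell without any 1 array but 18 h replicate 3. Bhlhe40, a transcriptional repressor that belongs to the clock gene list, had the second largest rise of all genes. It read 7.15, 8.47 and 7.77 at 6 h and 10.49, 11.34 and 9.99 at 18 h. On both groups of arrays replicate 2 was highest, and the difference was 2.81 (SE 0.43, adjusted p = 0.00198, limma). Untreated cells had read 10.23, so that the 6 h level was low against both.

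Germline and meiosis genes are normally active in germ cells and silent or low in most other cells. This list, like the others, was chosen with earlier results of these data known, and its share is a description. Of 22 tested members, 8 rose (36.4%, beside 6.21% of all genes) and 0 fell, and the median difference was 0.63. The count was 12 with the replicate block, 4 without 6 h replicate 2, and 5 without 6 h replicate 1 or 18 h replicate 3. Taf7l, a testis-enriched subunit of the general transcription machinery, rose most of them. It read 8.42, 8.61 and 7.83 at 6 h and 10.25, 10.07 and 9.87 at 18 h. The 18 h arrays lay above all 6 h arrays, by 1.78 on average (SE 0.28, adjusted p = 0.00243, limma). Asz1, which acts in the piRNA pathway, rose by 1.55 (SE 0.17), and Rec8, a meiotic cohesin subunit, by 1.43 (SE 0.24). Asz1 had a mean of 6.47 in untreated cells and Rec8 one of 8.76. The others were the RNA-binding Dazl (1.40), the synaptonemal complex gene Sycp2 (1.22), the cohesin gene Stag3 (1.20), and the piRNA pathway genes Mov10l1 (0.88) and Piwil2 (0.78). Without background correction Asz1 gave 0.76, Sycp2 0.415 and Mov10l1 0.38. No other called member was smaller by over 1.5 times. The Dazl call was lost without replicates 1 or 2 at 6 h or replicate 3 at 18 h (adjusted p 0.0528 to 0.0613, limma). With the replicate block its adjusted p was 0.000398 (limma). Stag3 lost its call without replicates 1 or 2 at 6 h or 2 or 3 at 18 h, Mov10l1 without those at 6 h or 1 or 3 at 18 h, and Piwil2 without replicate 2 at 6 h (adjusted p 0.0521 to 0.114, limma). Brdt, the testis-specific BET reader of acetylated histones, which is on another list, read 6.00, 6.15 and 6.46 at 6 h and 7.78, 7.83 and 8.06 at 18 h. Its groups were well apart (difference 1.68, SE 0.17, adjusted p = 0.000167, limma).

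The cilium list holds intraflagellar transport and basal body genes, dynein subunits and the RFX factors that bind their promoters. Of 34 tested members, 8 rose (23.5%, beside 6.21% of all genes) and 2 fell (5.88%, beside 5.03%). The median difference was 0.14, and 5 rose without any 1 of the 6 h replicates or without 18 h replicate 1. The 3 that rose most were Dynlrb2, a dynein light chain (1.30, SE 0.25), Pifo, a gene of cilium disassembly (1.25, SE 0.25), and Dync2li1, a subunit of the retrograde transport motor (1.02, SE 0.21). Dynlrb2 read 6.00, 5.33 and 5.82 at 6 h and 7.58, 6.40 and 7.06 at 18 h, from 4.45 in untreated cells. All 18 h arrays lay above all 6 h arrays. Without background correction Dynlrb2 gave 0.62 and Pifo 0.57. The promoters of Dynlrb2 and Pifo are shown with capitals on GTTGCC, part of the element that RFX factors bind, on either strand. They lie at chr8:116504765-116505064 on the plus strand and at chr3:106001448-106001747 on the minus strand (RefSeq, GRCm38.p6), the latter being 1 of 2 promoters listed for Pifo, and the other has no match.
Dynlrb2: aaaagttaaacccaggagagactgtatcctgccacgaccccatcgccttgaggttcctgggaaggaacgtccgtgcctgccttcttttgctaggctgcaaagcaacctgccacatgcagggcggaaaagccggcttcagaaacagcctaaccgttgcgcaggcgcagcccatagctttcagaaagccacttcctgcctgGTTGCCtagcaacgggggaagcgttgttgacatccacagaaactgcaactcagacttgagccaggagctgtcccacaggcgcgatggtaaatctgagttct
Pifo: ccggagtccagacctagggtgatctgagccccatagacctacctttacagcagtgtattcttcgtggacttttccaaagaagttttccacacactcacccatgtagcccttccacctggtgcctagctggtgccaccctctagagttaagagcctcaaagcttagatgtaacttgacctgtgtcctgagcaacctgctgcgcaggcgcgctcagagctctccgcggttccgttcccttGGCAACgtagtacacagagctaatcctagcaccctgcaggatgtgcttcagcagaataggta
Of 29 tested members with a promoter entry, 19 had the letters, or 65.5%, beside 14.1% of all genes with an entry. The list was chosen for cilium genes, whose promoters RFX factors bind, so this share does not bear on the rise. The letters were present in 5 of the 6 such members that rose and 1 of the 2 that fell. Those that fell were Rfx2 (-0.70) and Bbs4 (-0.55), and both calls were lost without any 1 of the 6 h replicates or of replicates 2 and 3 at 18 h.

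**Figure D3:**
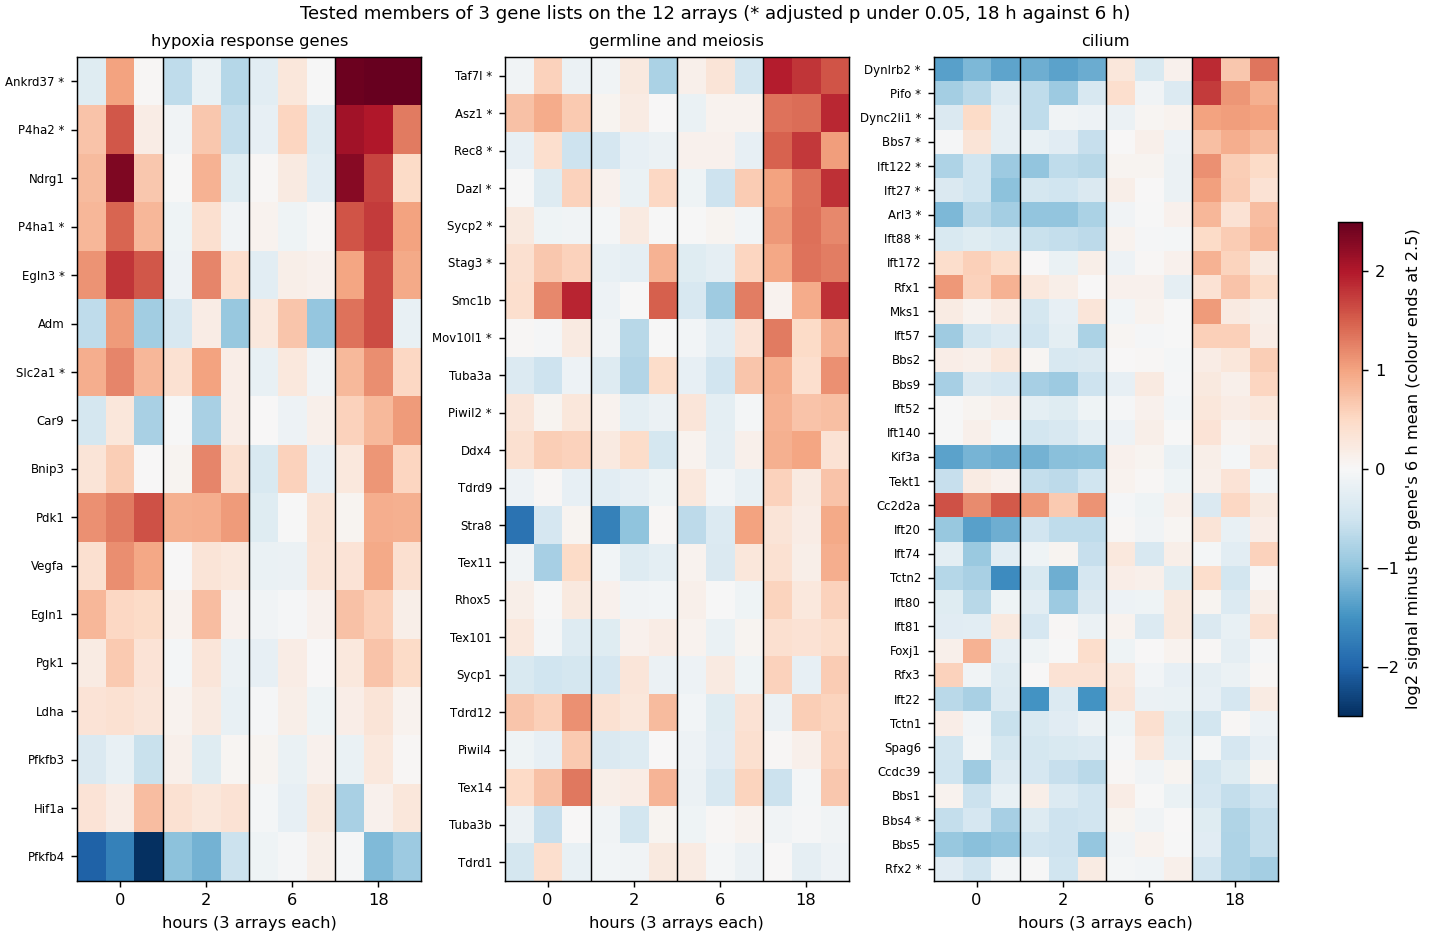
Log2 signal minus the gene's own 6 h mean (colour) for the tested members of 3 lists (rows) on 12 arrays (columns, 3 per time). Asterisks mark the 5 hypoxia, 8 germline and 10 cilium genes with adjusted p under 0.05, and by the mean of the 18 h arrays Ankrd37 (2.57), P4ha2 (1.79) and Taf7l (1.78) lie furthest above 6 h.

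Cdx2, the homeobox factor of trophectoderm and posterior patterning, read 5.17, 5.61 and 4.64 at 6 h and 6.91, 7.55 and 7.30 at 18 h. All 18 h arrays were higher (difference 2.11, SE 0.30, adjusted p = 0.00143, limma), and untreated cells had 5.33. Without background correction the difference was 0.95. Of 24 Hox and Cdx genes on the array, 13 were tested. Members detected at 18 h alone would be kept and could only rise, so the share is a description. All 13 differences lay above 0, with a median of 0.41. Of the 13, 3 rose (23.1%, beside 6.21% of all genes) and 0 fell. The 3 were Cdx2, its relative Cdx1 (1.25) and Hoxd8 (1.15). Without background correction Cdx1 gave 0.58 and Hoxd8 0.48. The count was 3 without each single array in turn. Of 13 tested trophectoderm and keratin genes, 4 rose (30.8%, beside 6.21% of all genes) and 1 fell (7.69%, beside 5.03%). Only 2 rose without replicates 1 or 3 of the 6 h group or replicates 1 or 2 of the 18 h group. Krt19, an epithelial keratin, was higher by 2.26 (SE 0.55), and its call was lost without any 1 of those 4 arrays (adjusted p 0.0605 to 0.0747, limma). With the replicate block its adjusted p was 0.000517 (limma). Tfap2a rose by 1.06, while its 3 further probes ranged from -0.20 to 0.68, and Lgals3 rose by 0.93, with the call lost without each array in turn (adjusted p 0.0541 to 0.154, limma). Lgals3 had an adjusted p of 0.0077 with the replicate block (limma). Phlda2, an imprinted gene of placental growth, fell by 0.87.

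Of 16 tested neural genes 3 rose (18.8%, beside 6.21% of all genes) and 1 fell (6.25%, beside 5.03%). The median difference was -0.07, with 8 members above 0 and 8 below. With the replicate block 5 rose and 3 fell, and 1 rose and 0 fell without 6 h replicate 3. The synaptic vesicle gene Syt1 rose by 2.09 (SE 0.29), with 0.54 at its further probe. Map2 and Syp gave 1.16 and 1.15, and both calls were lost without 6 h replicate 3, that of Map2 also without 18 h replicate 2. The neural gene that fell was Stmn2 (-0.84), and its call was lost without 6 h replicate 3 (adjusted p = 0.0614, limma). Pdgfra, a receptor on primitive endoderm, rose by 0.99, and by 0.38 without background correction. It was the 1 called gene of 12 tested endoderm genes (8.33%, beside 6.21% of all genes that rose). Of 11 tested streak and mesoderm genes only Tbx6 passed (9.09%, beside 5.03% of all genes that fell). It gave -0.51 at an adjusted p of 0.048 (limma), and did not pass when any single array of either group was left out. Wnt list genes Nkd2, Cdx1 and Nkd1 rose by 1.68, 1.25 and 0.86, of 18 tested (16.7%, beside 6.21% of all genes). These 3 calls held without each array in turn. The 1 that fell (5.56%, beside 5.03%) was the Wnt receptor gene Fzd2 (-1.0). Its call was lost without replicates 2 or 3 at 6 h or replicate 2 at 18 h (adjusted p 0.0743 to 0.0888, limma). The further probe of Cdx1 gave 0.62 and that of Nkd1 0.08, and the Nkd1 call was lost with the mean of its probes (adjusted p = 0.0554, limma). Nkd2 and Nkd1 encode inhibitors of Wnt signalling.

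Several genes fell from a 6 h level that was above the untreated one. Srf, a transcription factor of the serum response, read 10.63, 10.78 and 10.50 at 6 h and 9.44, 9.05 and 9.02 at 18 h. The groups were separate (difference -1.47, SE 0.18, adjusted p = 0.000558, limma), and the 0 h and 2 h means were 9.29 and 10.31. Hspa5, the main chaperone of the endoplasmic reticulum, read 10.40, 9.98 and 9.95 at 6 h and 9.21, 8.60 and 8.44 at 18 h, from 8.02 at 0 h. Its difference was -1.36 (SE 0.21, adjusted p = 0.00203, limma). Cdc6, which loads the replicative helicase, read 10.47, 10.34 and 10.38 at 6 h and 9.15, 8.61 and 8.76 at 18 h (difference -1.56, SE 0.17, adjusted p = 0.000243, limma). Its 18 h arrays were also below the untreated mean of 9.53. Armc9 fell by 1.98 on the probe used, and its 3 further probes ranged from -1.41 to 0.06. These genes are given for their levels at 4 times, which share arrays with the comparison and were not tested here.

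Of 19 tested immediate early genes, 1 rose (5.26%, beside 6.21% of all genes) and 2 fell (10.5%, beside 5.03%). With the replicate block 5 fell. The 1 that rose was Klf6 (0.67), and its call was lost when any array but 18 h replicate 1 was left out. Egr4 had a difference of -1.81 and its groups overlapped, since 18 h replicate 1 read 8.95 and the other 18 h arrays 6.31 and 6.27. The adjusted p was 0.047, and it missed the threshold without any 1 of the 6 h replicates or of replicates 2 and 3 at 18 h (adjusted p 0.0815 to 0.174, limma). Fos read 11.05, 10.87 and 10.69 at 6 h and 10.61, 9.73 and 9.33 at 18 h. The groups did not overlap, and its adjusted p was 0.0797 over all arrays, 0.0279 with the replicate block and 0.0237 without 18 h replicate 1 (limma). Egr1 gave -0.45 (adjusted p = 0.315, limma, and 0.0489 with the replicate block). Per2, a clock repressor, fell by 1.69 (SE 0.36), with 7.10 on 18 h replicate 1 and 5.38 and 5.46 on the others. Its further probes gave -1.21 and -0.15. Of 23 tested apoptosis regulators 2 fell (8.7%, beside 5.03% of all genes) and 1 rose (4.35%, beside 6.21%). The pro-apoptotic Bik and the initiator caspase Casp9 fell by 1.18 and 1.15, and Bnip3l rose by 0.91. The mean of Bik was 7.29 at 0 h, 9.02 at 6 h and 7.84 at 18 h. That of Casp9 was 8.42, 9.92 and 8.78. The MYC antagonist Mxd1 fell by 1.32, on a list of which 2 of 24 tested genes fell (8.33%, beside 5.03%).

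**Figure D4:**
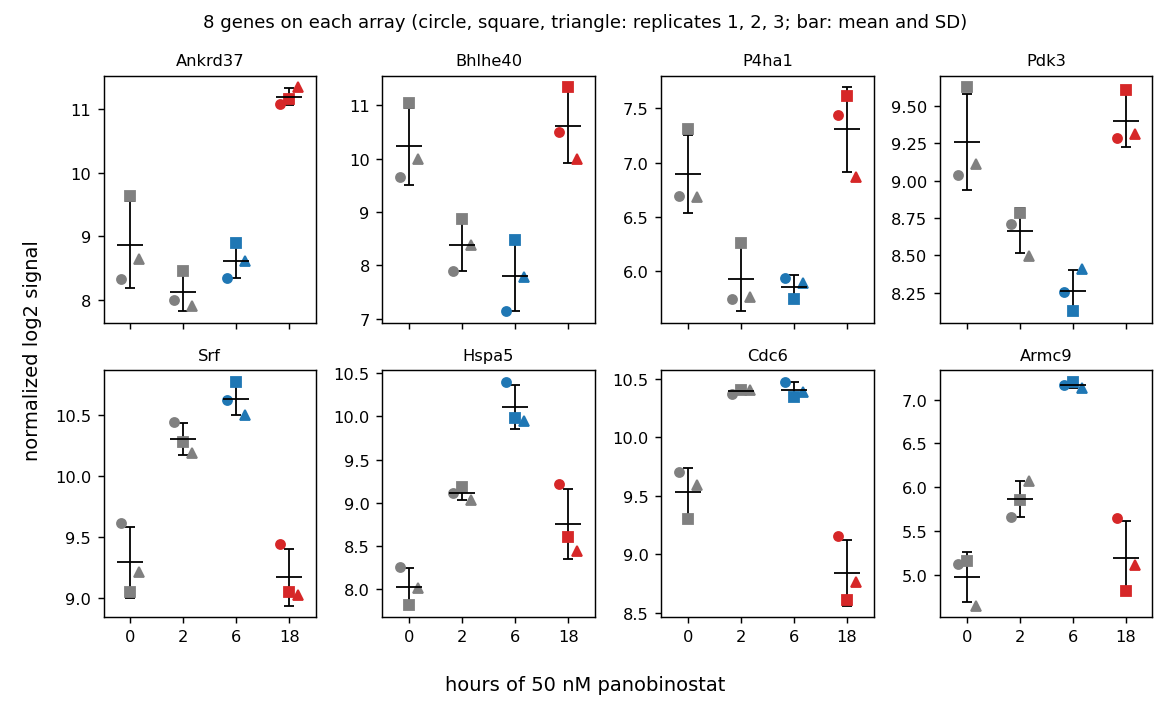
Normalized log2 signal of 8 genes (vertical axes) at 4 times of exposure (horizontal axes, hours), with 1 point per array and the mean and SD of 3 arrays. Bhlhe40, P4ha1 and Pdk3 are lowest at 6 h or 2 h, whereas Srf, Hspa5 and Armc9 are highest at 6 h.

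Oas1e, a member of the oligoadenylate synthetase family of antiviral enzymes, had the largest rise. It read 5.88, 5.14 and 5.73 at 6 h and 10.24, 7.51 and 10.00 at 18 h, with 18 h replicate 2 lower than the other 2 and still above all 6 h arrays. Its difference was 3.67 (SE 0.51, adjusted p = 0.00128, limma), and Oas1d, a close relative, rose by 2.38 (SE 0.44). In the interferon and antigen presentation list 2 of 22 tested genes rose (9.09%, beside 6.21% of all genes), Ifi27 (1.93) and Usp18 (0.97). Without background correction they gave 0.77 and 0.52. Another 2 fell (9.09%, beside 5.03%), Ifitm1 (-1.49) and Stat2 (-0.87). With the replicate block 5 rose and 4 fell. The Stat2 call was lost without replicates 2 or 3 of either time. H2-Aa, a class II antigen presentation gene, rose by 2.14, the protease inhibitor Slpi by 2.12, the collagen gene Col6a1 by 2.28, Psors1c2 by 2.33 and the lipase relative Pnliprp2 by 2.18. Clec4g, a C-type lectin, was not detected on any 6 h array and was at least 3.58-fold higher at 18 h with the background correction used. Its fitted difference was 2.11 with that correction and 0.85 without it, against 2.28 and 1.07 for Col6a1 and 3.67 and 2.38 for Oas1e.

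Bcat1, which starts the breakdown of branched-chain amino acids in the cytosol, had the largest fall. It read 11.20, 10.95 and 10.71 at 6 h and 8.66, 9.14 and 8.80 at 18 h. The groups were far apart (difference -2.09, SE 0.18, adjusted p = 0.000167, limma), and a further probe gave -1.99. Slc7a3, a transporter of cationic amino acids, fell by 2.01 (SE 0.24). It was 1 of 4 of 26 tested ATF4 and serine synthesis genes that fell (15.4%, beside 5.03% of all genes). With the replicate block 7 fell and 3 rose, and 2 fell without any 1 array but 18 h replicate 1. Cth, which makes cysteine, gave -1.25, and its call was lost without 6 h replicate 1 (adjusted p = 0.0534, limma). Upp1, a uridine phosphorylase, fell by 1.78, and its further probes gave -1.98 and -1.86. Ooep, of the oocyte and early embryo, fell by 1.94, and Gm428, Mup6 and Zfp84 gave -2.00, -1.90 and -1.86. Elovl6, a fatty acid elongase, fell by 1.74 (SE 0.27). Of 15 tested fatty acid genes it was the 1 that fell (6.67%, beside 5.03% of all genes). Acss2 was the 1 that rose (0.78, 6.67%, beside 6.21%), and its call was lost without each array in turn. Trh, the thyrotropin-releasing hormone gene, gave -1.78, and its call was lost without 6 h replicates 2 or 3 or 18 h replicates 1 or 2 (adjusted p 0.0799 to 0.109, limma).

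Imprinted genes, expressed from 1 parental allele, held 5 that fell (27.8%, beside 5.03% of all genes) and 1 that rose (5.56%, beside 6.21%) of 18 tested. With the replicate block 5 rose and 5 fell, and 3 fell without any 1 of the 6 h replicates or without 18 h replicate 3. Grb10, a growth inhibitor, read 11.29, 11.42 and 11.14 at 6 h and 9.05, 9.73 and 9.61 at 18 h on the probe used. That probe gave -1.82 (SE 0.19) and the gene's other probe -0.11. Impact gave -0.96 and -0.01 on its probes. Cdkn1c, an imprinted inhibitor of cyclin-dependent kinases, read 11.61, 11.46 and 10.59 at 6 h and 13.73, 12.43 and 12.85 at 18 h. It rose by 1.78 (SE 0.31, adjusted p = 0.00407, limma). Of 8 tested CDK inhibitors it was the 1 gene called (12.5%, beside 6.21% of all genes that rose), and 2 were called with the replicate block. Cdkn1a, the inhibitor often induced by such drugs, gave 0.06 (SE 0.20, adjusted p = 0.895, limma).

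None of the 34 tested mitosis genes passed (limma), 5 were lower at an unadjusted p under 0.05, and 4 were lower with the replicate block. Of 39 tested DNA replication genes 4 fell and 0 rose, or 10.3%, beside the 5.03% of all genes that fell, and without single arrays 1 to 3 fell. None of the 15 tested histone deacetylases passed (limma), and 1 was higher and 1 lower both at an unadjusted p under 0.05 and with the replicate block. Hdac2 and Hdac3 each gave 0.12, with the sign turned under scaling to the 75th percentile. Of 19 tested partners of histone deacetylases in complexes 2 fell (10.5%, beside 5.03% of all genes) and 0 rose. Chd4, the helicase of the NuRD complex, fell by 0.88 (SE 0.15), with -1.16 and -0.98 on further probes. Of 29 tested Polycomb genes 2 fell (6.9%, beside 5.03% of all genes) and 1 rose (3.45%, beside 6.21%). The Polycomb reader Cbx7 fell by 0.60, and Pcgf5 rose by 0.92, with 0.14 on its further probe. Of 36 tested splicing factors 6 fell (16.7%, beside 5.03% of all genes) and 1 rose (2.78%, beside 6.21%). Without single arrays 1 to 4 fell. Ptbp1, a repressor of exon inclusion, read 12.02, 12.02 and 11.92 at 6 h and 10.84, 10.72 and 10.68 at 18 h. It fell by 1.24 (SE 0.15, adjusted p = 0.000474, limma), and 8 further probes ranged from -1.56 to -0.11. Of 26 tested p53 targets 1 gene, Sesn2, passed at -0.76 (3.85%, beside 5.03% of all genes that fell). Its further probes gave -0.31 to 0.16, and its call was lost when any array but 18 h replicate 1 was left out. With the replicate block 3 p53 targets rose and 2 fell. In limma's test no tested gene of sterol synthesis, the citric acid cycle, BMP signalling, the 2-cell-like state or epithelial junctions passed. At an unadjusted p under 0.05, 3 sterol genes were lower, 2 citric acid cycle genes higher and 1 lower, 2 BMP genes higher, no 2-cell gene either way, and 4 junction genes higher and 1 lower. With the replicate block 3 sterol genes and 1 citric acid cycle gene were called lower, and 3 junction genes and 1 BMP gene higher. Among the 41 tested genes of oxidative phosphorylation 3 rose, or 7.32%, beside 6.21% of all genes. The count was 0 with scaling to the 75th percentile or without replicates 1 or 2 at 6 h.

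**Figure D5:**
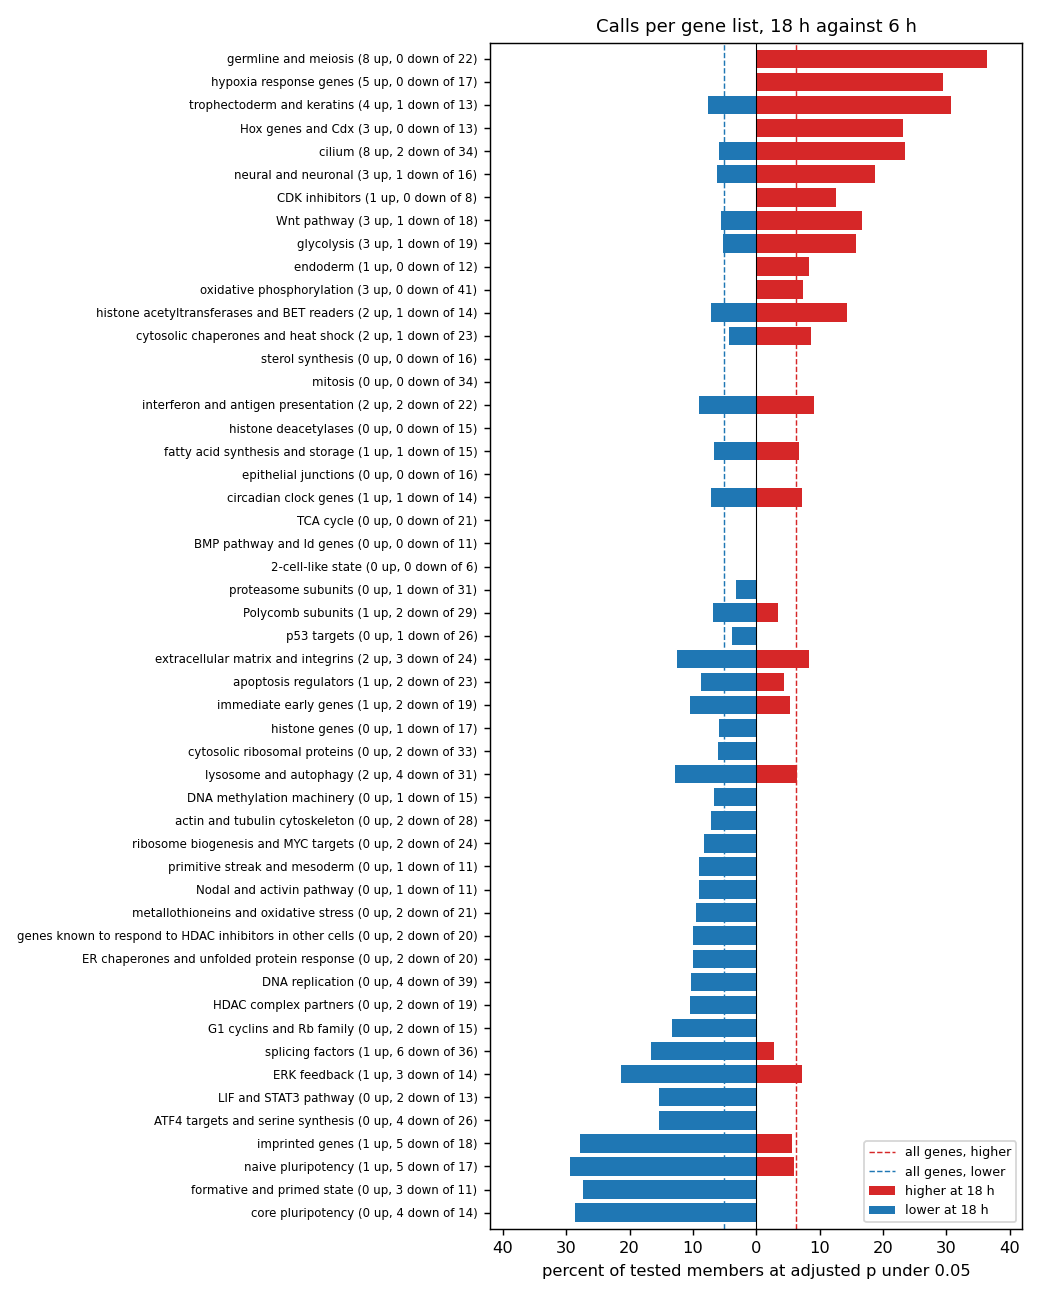
Share of each list's tested members (horizontal axis, percent) that were higher (right) or lower (left) at 18 h than at 6 h, for 51 lists (rows). Dashed lines mark all genes at 6.21% higher and 5.03% lower, and germline and meiosis genes extend furthest to the right, at 36.4%. Lists and members were chosen with earlier results of these data known.

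At the threshold, Fscn1 and Trim35 lay just inside it with differences of -0.57 and -0.67, and Znrd1 and Ap4m1 just outside it with -0.56 and 0.75.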

How the data were processed

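RNA of the cells was measured on 12 single-colour Illumina bead arrays, 3 per time. The signals are linear intensities that the authors deposited unnormalized (GenomeStudio, per the submitters' processing notes), with a detection p-value per probe, per the file headers. The authors' normalized intensities, deposited separately, served as an alternative. Genes were named for 34885 probes with 1 gene (18 had several, 10378 none), of which 34807 took current symbols from the RefSeq table of GRCm38.p6.

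Signals were corrected with the normexp model of limma 3.58.1 in R 4.3.3 (background from the detection p-values, offset 16), quantile normalized and log2 transformed. Probes with detection p under 0.05 on at least 3 arrays were kept, and each gene was read from its kept probe with the highest mean. One linear model over the 12 arrays held a mean for each group, and the 18 h minus 6 h difference was tested, 2-sided, with Benjamini-Hochberg adjustment. The median SE was 0.200, and the number of arrays limits the precision. Where no array of a group detected a gene, the fold is a bound from the lowest detected signals, and it holds only for the background correction used. The code was tested on simulated data. No slide or scan information was used.

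The replicate numbers come from the labels. Deviations from the group means correlated at 0.146, 0.181 and 0.342 between 6 h and 18 h arrays of the same number. Between others they correlated at -0.268 to 0.0791, so the numbers were taken as pairs. The reported test nevertheless leaves this pairing out, and only the values given with the replicate block include it. The block's count had been seen before these correlations were computed.

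Named genes were the 12 largest rises and falls with groups that do not overlap, up to 3 called members per list and direction, a panel of 14 genes (Myc and Hdac1 were not tested) and 2 genes on each side of the threshold; list members outside this rule were named after their values were seen. The members and the 51 lists were chosen with earlier results of these data known. Promoters of 4 lists (hypoxia, germline, cilium and immediate early genes) were searched on both strands for 12 motifs: ACGTG and its variant GCGTG (hypoxia response), CACGTG (E-box), GGCGGGAA (E2F6), TCACGTGA (lysosomal genes), TGACGTCA (cyclic AMP response), CCGGAAG (ETS factors), TGATGCAA (ATF4), GTTGCC (RFX factors), TTGCGGGC (E2F), and 1 spelling each of the serum response and heat shock elements. ACGTG also lies within CACGTG and TCACGTGA. The 2 motifs described in the results were picked after all matches were seen, and no test was made of them. A gene counted as matched if any of its promoter entries did.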

Additional observations from a re-analysis of the deposited data

How the results depend on the processing

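Each result was recomputed under 18 alternatives. With the replicate block 2112 genes were called (1172 higher, 940 lower), and with array weights 1841 (962 higher, 879 lower). Leaving out single arrays gave 556 to 1154 calls, 339 to 565 higher and 217 to 589 lower; the fewest came without 6 h replicate 3. The remaining alternatives gave 1121 to 1548. All shared calls had the direction of the reported result under every alternative. Genes past 2-fold numbered 411, against 105 without background correction, 108 with the authors' normalized values and 223 at an offset of 50. With scaling to the 75th percentile the median of all genes was -0.054 and 48.2% of calls were higher, against 55.2%. Of the 127 called genes named by the rule, 62 kept their call in all 18 alternatives, 65 lost it in at least 1, and none changed direction. Some differences without a call changed sign. Scaling to the 75th percentile gave -0.0527 for Cdkn1a, -0.0282 for Hdac2 and -0.0064 for Hdac3; the mean of a gene's probes gave 0.0012 for Nanog and -0.0829 for Hdac2; array weights gave 0.1372 for Nanog. Without single arrays, Nanog ranged from -0.3786 to 0.4366, Zfp42 from -0.4261 to 0.0662, Sox2 from -0.0800 to 0.6329 and Cdkn1a from -0.0469 to 0.1634. The causes were not tested. Beyond the values printed beside the results, the replicate block also called the 2 genes just outside the threshold, Znrd1 (adjusted p = 0.0138, limma) and Ap4m1 (adjusted p = 0.0279, limma). Signal over background limits the 68 higher and 15 lower genes that 1 of the groups did not detect. Their fitted differences are not bounds. Folds written as "at least" are bounds only under the background correction used, and without it the log2 difference was 0.85 for Clec4g and -0.23 for Tfeb.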

Other observations

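Lysosome and autophagy genes held 2 that rose (6.45%, beside 6.21% of all genes) and 4 that fell (12.9%, beside 5.03%) of 31 tested. None rose without replicates 1 or 3 at 6 h or 1 or 2 at 18 h, and 1 fell without 18 h replicate 2 and 2 without 6 h replicate 3. The autophagy kinase gene Ulk1 fell by 1.15 (SE 0.23, adjusted p = 0.00908, limma), and its further probe gave -1.20. Sqstm1, an autophagy receptor, gave -0.89, and its call was lost without 6 h replicate 3 or 18 h replicate 2. Tfeb, a regulator of lysosomal genes, was not detected on any 18 h array. It was at least 1.37-fold lower there with the background correction used, and its log2 difference was -0.23 without that correction. The call was lost without 6 h replicate 1 or 18 h replicate 2. It was also lost without background correction (adjusted p = 0.0659, limma) or with the authors' normalized values (adjusted p = 0.065, limma). In the matrix and integrin list, 2 of 24 tested genes rose (8.33%, beside 6.21% of all genes) and 3 fell (12.5%, beside 5.03%). Timp1, an inhibitor of matrix proteases, rose by 1.54 (SE 0.32), while Timp3 gave -1.37 (-0.75 and -0.20 on further probes). The Timp3 call was lost without 6 h replicates 1 or 2 or 18 h replicates 2 or 3.

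Probes without a named gene were tested in a fit over 20029 probes. Of 3000 such probes, 241 were called (138 higher and 103 lower), or 8.03%, beside 9.46% of probes with a named gene.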
